A study of Saccharomyces cerevisiae with 2 samples.

Results

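Fixed nucleosomes are taken here as nucleosomes of the budding yeast Saccharomyces cerevisiae whose midpoint, the dyad, lay at nearly the same base in phosphate-starved cells and in cells given back phosphate. They were picked from the measured maps of both libraries. A starvation dyad had to stand at a height of 2 or more, and the nearest high phosphate dyad of height 1.5 or more had to lie within 5 bp. Height is the local tag density divided by the mean of its library, so that 1 is the genome mean. Of 60918 starvation dyads, 22443 reached a height of 2, and 8243 of these met the rule. These 8243 fixed nucleosomes are 36.7% of the strong starvation dyads (height 2 or more) and pair with 20.6% of the 40087 high phosphate dyads of height 1.5 or more. The 147 bp around their dyads add up to 10.1% of the nuclear genome.

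Both cultures were of the same strain, which carries PHO4-MYC::TRP1 and CBF1-3HA::LEU2, and both were starved of phosphate for 3 hours first. One was then kept for 80 minutes in 0 mM phosphate (starvation) and the other for 80 minutes in 10 mM phosphate (high phosphate), so the high phosphate cells had also been starved. Mononucleosomal DNA was released with micrococcal nuclease, which cuts the linker DNA between nucleosomes, purified from a gel and sequenced; a short label names sonication, which the protocols do not describe, and the medium is named both PNB and YNB. There was 1 library for each condition, with 1001229 nuclear starvation tags and 2598022 in high phosphate, or 83.2 and 216 tags per kb. No difference between the libraries has a replicate check, no test between conditions was possible, and the library and the condition cannot be told apart.

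A nucleosome is a stretch of DNA wrapped around a core of histone proteins, and in yeast genes nucleosomes commonly line up in regular arrays that start beside a nucleosome-depleted stretch at the promoter. Phosphate starvation activates the transcription factor Pho4, and the eviction of nucleosomes from phosphate-responsive promoters by Pho4 is a standard example of chromatin remodelling. Cbf1 is another factor that binds the same core sequence. A constant dyad means here that the peak of the smoothed tag density, taken over a pool of cells, stayed on nearly the same base. It does not show that most cells put the histone core on the same bases, or that they all carry one there. In pools of cells, fewer cells carrying a nucleosome and fewer fragments recovered from each cannot be told apart.

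The fixed nucleosomes were the core of a continuous distribution of distances and not a separate group. Among strong starvation dyads, 776 had a high phosphate dyad at exactly the same base, 1682 at 1 bp and 1592 at 2 bp. The numbers fell with distance, to 1251 at 5 bp, the last distance inside the rule, and 1088 at 6 bp, the first outside it. Another 7382 strong dyads had their high phosphate dyad 6 to 20 bp away; they are called near-matched below. The remaining 6818 had none within 20 bp and are called unmatched. Only high phosphate dyads of height 1.5 or more count in these distances, so an unmatched dyad may have a lower one nearby. Over 6812 unmatched dyads, the mean high phosphate density was 1.43 at the starvation dyad and 0.745 at 75 to 95 bp from it. Of all strong dyads, 5.96% had the nearest high phosphate dyad at 21 to 40 bp and 4.04% at 41 to 80 bp, while 10.8% had it at 121 to 200 bp, which is about the spacing of neighbouring nucleosomes.

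The small displacements had no common direction along the chromosome coordinates. The rule allows the same distance on each side, and left and right were not turned to the direction of genes. A direction relative to transcription was therefore not tested. The high phosphate dyad lay to the right of the starvation dyad at 3704 fixed nucleosomes, to the left at 3763 and on the same base at 776. The mean displacement, high phosphate minus starvation, was −0.017 bp with an SD of 0.164 bp over the 16 chromosomes. The median distance without regard to sign was 3 bp. Chromosomes of a library are not biological replicates, and SDs over them, here and below, show evenness along the genome only.

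**Figure D1:**
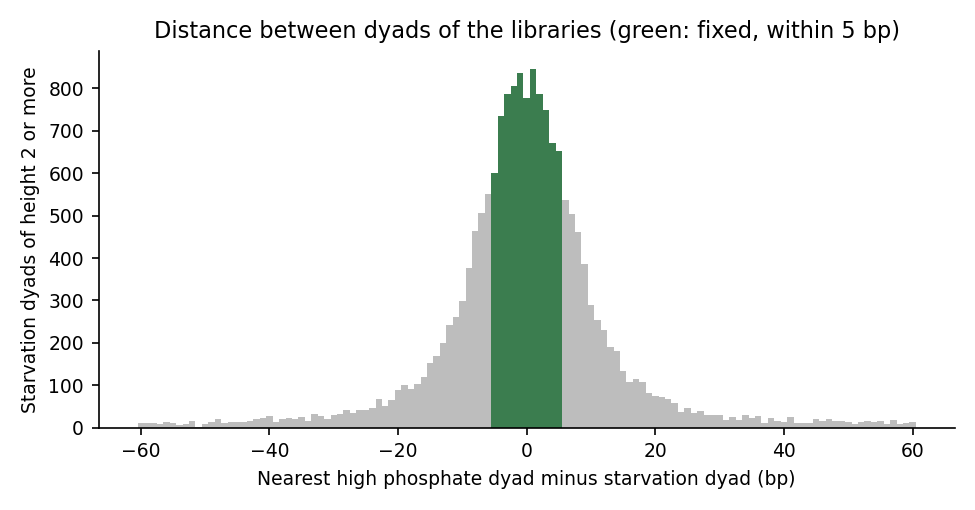
Number of starvation dyads of height 2 or more (vertical axis) by the distance in bp from the starvation dyad to the nearest high phosphate dyad of height 1.5 or more (horizontal axis, shown to 60 bp). The 8243 dyads within 5 bp are green. The bars fall smoothly across the edge of the rule, from 1251 dyads at 5 bp to 1088 at 6 bp, both directions added.

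Just inside the height limits stood fixed nucleosomes of 2.0002 in starvation and 1.5003 in high phosphate. The 3 nearest dyads that missed the starvation limit had heights from 1.9993 to 1.9997, and the 3 that missed the high phosphate limit had heights from 1.4991 to 1.4999. Depth bears on membership more than these edges do. A fixed nucleosome had a median of 19 starvation tags in the 2 windows of 81 bp where its fragment ends fall, with a lowest value of 9 and a highest of 147. In high phosphate the median was 38 tags, the lowest 18 and the highest 161. When the high phosphate library was thinned to the starvation depth, the rule gave 6398 fixed nucleosomes, and 53.6% of the original 8243 lay within 5 bp of one of them. At 229 fixed nucleosomes (2.78%) all starvation tags in these windows were on 1 strand, and at 983 (11.9%) a strand had fewer than 3. In high phosphate these numbers were 49 and 152.

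Heights spread more widely in starvation than in high phosphate. Over the fixed nucleosomes the starvation height ran from 2.0 to 22.0 with a median of 3.54, and its middle 50% from 2.57 to 5.79. In high phosphate the range was 1.5 to 9.20, the median 2.59 and the middle 50% from 2.11 to 3.10. The starvation height was the greater at 6188 (75.1%) and the smaller at 2055, with the starvation limit set higher by the rule. The heights in the libraries were hardly related, with a Spearman's rho of 0.12 and a Pearson's r of 0.16 over 8243 nucleosomes. This is a description only, since both libraries were used to choose them. Starvation had fewer tags, with a mean of 12.2 per 147 bp against 31.7 in high phosphate. The parts of depth and of the limit of 1 tag per position and strand in these values were not tested.

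The share of strong dyads that were fixed did not rise steadily with height. It was 36.4% at starvation heights of 2 to 2.5, 38.5% at 2.5 to 3 and 34.4% at 3 to 4. It then stood at 29.6% at 4 to 5, 33.2% at 5 to 7 and 54.4% at 7 or more. The dip followed the dyads that lacked a partner, here a high phosphate dyad of height 1.5 or more. At heights of 4 to 5, 29% of strong dyads had no partner of that height within 80 bp. The share was 17.7% at 2 to 2.5 and 5.04% at 7 or more. Lower high phosphate dyads were not counted. Among strong dyads that had a partner within 20 bp, the fixed share was 50.1%, 53.8%, 54.0%, 50.8%, 49.3% and 60.6% in the same 6 classes of height.

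Fixed nucleosomes were found on all 16 nuclear chromosomes at similar density. Density ran from 62.1 per 100 kb on chromosome 4 to 80.2 on chromosome 9, with a mean of 70.6 and an SD of 5.69. As a share of strong dyads they ran from 34.9% on chromosome 12 to 41.5% on chromosome 1. Over 594 windows of 20 kb the median number was 14, the middle 50% from 11 to 17. The window with most was chromosome 8 from 480001 to 500000, with 37 fixed nucleosomes among 63 strong dyads. Next came chromosome 1 from 100001 to 120000 and chromosome 9 from 40001 to 60000, with 28 each among 60 and 58 strong dyads. The chromosome 8, 1 and 9 windows held 2407, 2422 and 2473 starvation tags, where the library mean is 83.2 tags per kb. Height is relative to that mean, and the part of local depth in this order was not tested. The only window without any was chromosome 9 from 1 to 20000, where the starvation library had 25 tags. Within 5 kb of the outermost tags, 40 of 87 strong dyads were fixed, or 46.0% (95% exact binomial interval 35.2% to 57.0%, counting error only). At 5 to 20 kb the share was 34.9%, and beyond 100 kb it was 36.6%.

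The spread of tags around the fixed dyads was measured from the starvation dyad in both libraries, so the starvation value is favoured and the libraries cannot be compared by it. With tags moved 73 bp to the fragment middle, their SD within 60 bp of the dyad was 23.2 bp for starvation (SD over chromosomes 0.388) and 25.8 bp for high phosphate (0.221). Near-matched dyads had 24.6 and 27.7 bp, and unmatched dyads 27.2 and 32.4 bp. The value was lower at fixed than at near-matched nucleosomes on 16 of 16 chromosomes in each library. The same tags placed the dyads, so this order is not independent of the rule. After thinning to the starvation depth the high phosphate value was 25 bp. The starvation value was smaller at weak nucleosomes. At fixed nucleosomes of starvation height under 3 it was 21.5 bp and at those of 7 or more 24 bp, against 26 and 25.5 bp in high phosphate.

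**Figure D2:**
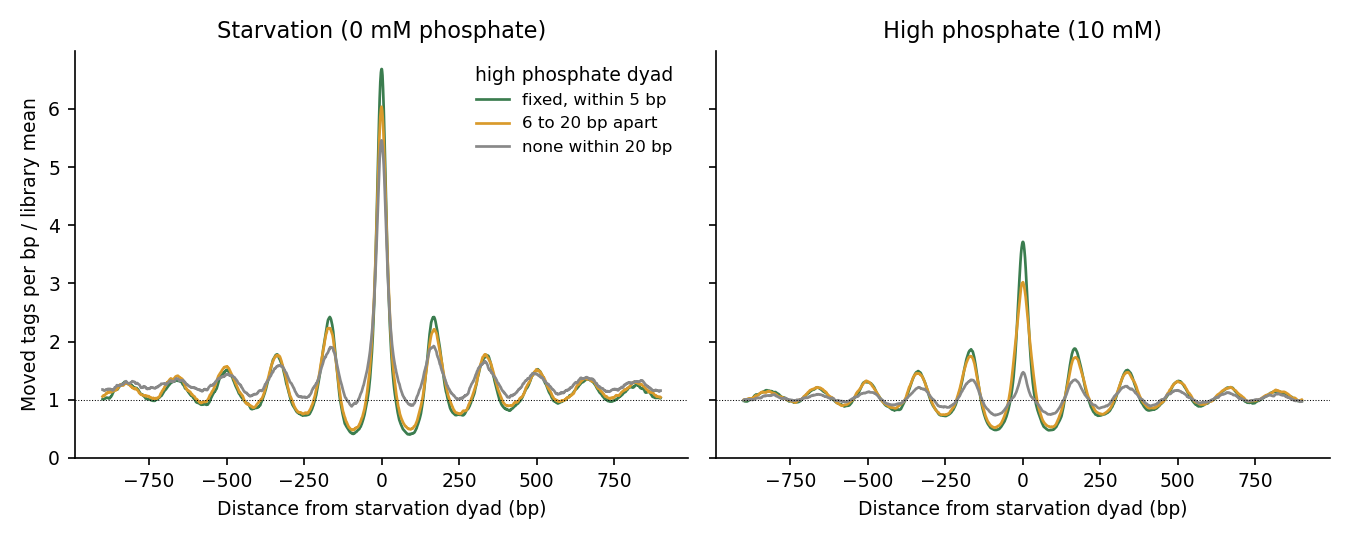
Mean density of moved tags divided by the library mean (vertical axis, 11 bp running mean) by distance in bp from the starvation dyad, for fixed (green), near-matched (orange) and unmatched (grey) strong starvation dyads, in starvation (left) and high phosphate (right). Fixed and near-matched dyads have neighbouring peaks of nearly the same height in each library, near 170, 337 and 502 bp from the dyad.

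Mean tag density around fixed nucleosomes had regular peaks, with nearly the same spacing in both conditions. It peaked again at 169 bp to the left and 170 bp to the right in starvation, and at 170 bp on both sides in high phosphate. The fourth peaks lay at 662 and 664 bp in starvation and at 664 and 665 bp in high phosphate. The spacing, taken as the slope over the first 4 peaks, was 164.4 bp (starvation) and 164.8 bp (high phosphate). It was 164.2 and 164.55 bp around near-matched and 164.6 and 164.35 bp around unmatched dyads, so this spacing was not particular to fixed nucleosomes. Mean profiles do not show that each fixed nucleosome sits in an array. The position of the first peak varied little over chromosomes, with an SD of 1.06 bp (starvation) and 0.785 bp (high phosphate).

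The neighbouring peaks stood lower than the fixed dyads in both libraries, and higher in starvation than in high phosphate. The first neighbouring peak had a mean density of 2.12 in starvation (SD over chromosomes 0.306) and 1.68 in high phosphate (0.064), and was the higher in starvation on 16 of 16 chromosomes. Nothing can be read from that direction: the rule asks for more height in starvation, many neighbours are fixed themselves, and tag ratios of near neighbours are related, as given below. By the fourth peak the density was 1.31 and 1.18. At near-matched dyads the first peak was 2.0 and 1.60. These values were lower than at fixed dyads on 14 and 15 of 16 chromosomes, by less than the SD over chromosomes in starvation. At unmatched dyads the first peak was 1.78 in starvation and 1.28 in high phosphate, lower than at fixed dyads on 16 of 16 chromosomes in each library.

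The fragment ends at the fixed nucleosomes lay farther out in starvation. Dyads were placed from tags of both strands moved by the same 73 bp, so like distances on the left and right follow from the rule. Plus-strand tags, which mark the left end, were most frequent 75 bp left of the dyad in starvation and 72 bp left of it in high phosphate. Minus-strand tags, which mark the right end, peaked 75 bp right of the dyad in starvation and 72 bp right of it in high phosphate. The distance between the ends was thus 150 bp (SD over chromosomes 1.32) for starvation and 144 bp (1.51) for high phosphate. The difference of 6 bp depended on the smoothing: with an SD of 15 bp in place of 20 bp the distances were 148 and 146 bp, a difference of 2 bp. With tags moved by 77 bp (starvation) and 71 bp (high phosphate) they were 152 and 146 bp. At fixed nucleosomes of height 7 or more, the distances were 151 and 146 bp. Genome-wide fragment lengths from pairs of tags on opposite strands were 155 and 142 bp.

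**Figure D3:**
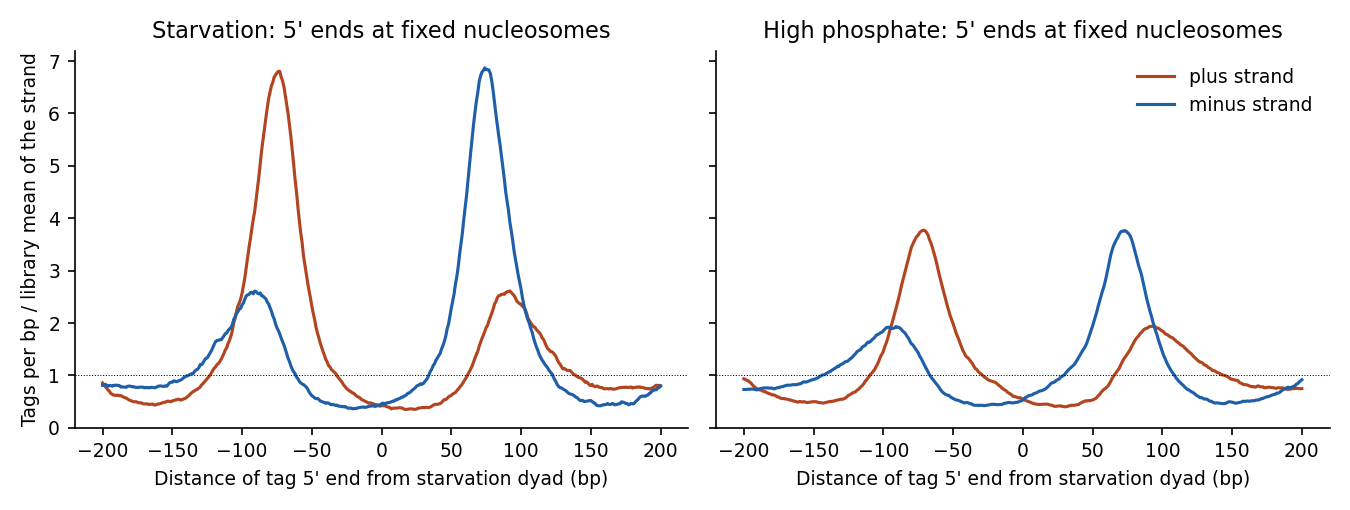
Density of tag 5′ ends at fixed nucleosomes divided by the library mean of the strand (vertical axis, 5 bp running mean) by distance in bp from the starvation dyad, plus strand in red and minus strand in blue, starvation left and high phosphate right. The mean profile has a plus-strand peak to the left and a minus-strand peak to the right, at 75 bp (starvation) and 72 bp (high phosphate). The smaller peaks outside belong to the neighbouring nucleosomes.

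Each position and strand holds at most 1 tag in the deposited lists, which caps the count. In the 21 bp around the expected fragment ends, 26.2% of positions held a tag in starvation and 38.4% in high phosphate, on average over the fixed nucleosomes. The library averages were 4.16% and 10.8%. At starvation heights of 7 or more the shares were 47.5% and 40.8%. The highest single value was 90.5% in starvation and 100% in high phosphate. Heights of the strongest nucleosomes are therefore understated in both libraries.

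A period of 10 bp, the turn of the DNA helix on the histone core, was not seen in the position of tags around fixed dyads. Its amplitude within 60 bp of the dyad was 0.131% of the local density in starvation and 0.169% in high phosphate, below the SD over chromosomes of 1.02% and 0.799%. Periods from 8 to 13 bp gave amplitudes from 0.131% to 0.777% in starvation and from 0.076% to 0.625% in high phosphate. Dyads were placed from densities smoothed over 20 bp, so a phase of this size would be blurred. In distances between tags of the same strand within a fixed nucleosome, which do not depend on the dyad, pairs 10 bp apart were 0.982 times as frequent as the smooth trend in starvation (SD over chromosomes 0.012) and 0.984 times in high phosphate (0.011). The farthest from the trend of the 12 distances examined were 1 bp, at 1.34 and 1.28 times, and 5 bp, at 0.939 and 0.953 times. Pairs 18 bp apart were 1.025 times as frequent as the smooth trend in starvation (SD over chromosomes 0.017) and 1.013 times in high phosphate (0.0075). Pairs 24 bp apart stood at 0.989 and 0.998 times. These distances were chosen after the values were seen.

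The neighbours of fixed nucleosomes were somewhat more often fixed themselves. Of 3305 fixed nucleosomes with another strong dyad as the next to the right within 250 bp, that dyad was also fixed at 1389, or 42% (SD over chromosomes 4.04 percentage points). Over all strong dyads with such a neighbour the share was 37.1%. It was 38.6% (SD 3.80) beside near-matched and 29.3% (SD 5.54) beside unmatched dyads. The share beside fixed nucleosomes was above that beside near-matched dyads on 11 of 16 chromosomes and above that beside unmatched dyads on 16 of 16. The first contrast is smaller than the spread over chromosomes. It had the same direction at starvation heights of 2 to 3 (42.9% against 40.2%), 3 to 5 (42.7% against 38.1%) and 5 or more (40.9% against 37.5%).

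Most fixed nucleosomes had no fixed dyad next to them. Of the 8243, 5462 (66.3%) had no fixed neighbour, 1876 were in pairs and 633 in runs of 3. Fixed nucleosomes are 13.5% of all 60918 starvation dyads, and a neighbour under height 2 cannot be fixed by the rule. Only 3305 had a strong dyad as the next to the right within 250 bp. The share expected from random placement was not computed, so nothing can be read from the 66.3%. There were 50 runs of 4, 12 of 5 and 2 of 6, the longest. Neighbouring fixed pairs within 250 bp had a median distance of 170 bp in both libraries, with the middle 50% between 162 and 180 bp. The linker between them, measured as the lowest smoothed density, was emptier in starvation. Its median was 4.43% of the mean of the flanking dyads in starvation (middle 50% from 1.33% to 11.1%) and 13.9% in high phosphate (8.67% to 21.1%). It was lower in starvation at 1176 of 1389 pairs, or 84.7%. The starvation library holds fewer tags, and the part of depth in this difference was not tested.

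The longest run with the highest mean height lay on chromosome 13 from 644639 to 645748 (sacCer1, positions as deposited) and held 6 fixed nucleosomes. Their starvation heights from left to right were 2.49, 7.13, 5.18, 3.74, 3.43 and 7.28, and their high phosphate heights 3.04, 2.40, 2.38, 1.62, 3.85 and 2.66. The dyads were displaced by at most 4 bp between libraries, although the heights changed order: starvation was the higher at 4 of them and the lower at the first and the fifth. The steps between starvation dyads were 162, 164, 164, 188 and 285 bp. In the last step a starvation maximum of height 2.36 stood 844 bp from the first dyad and was not counted as a dyad, because a higher one lay within 120 bp; high phosphate had no such maximum there.

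**Figure D4:**
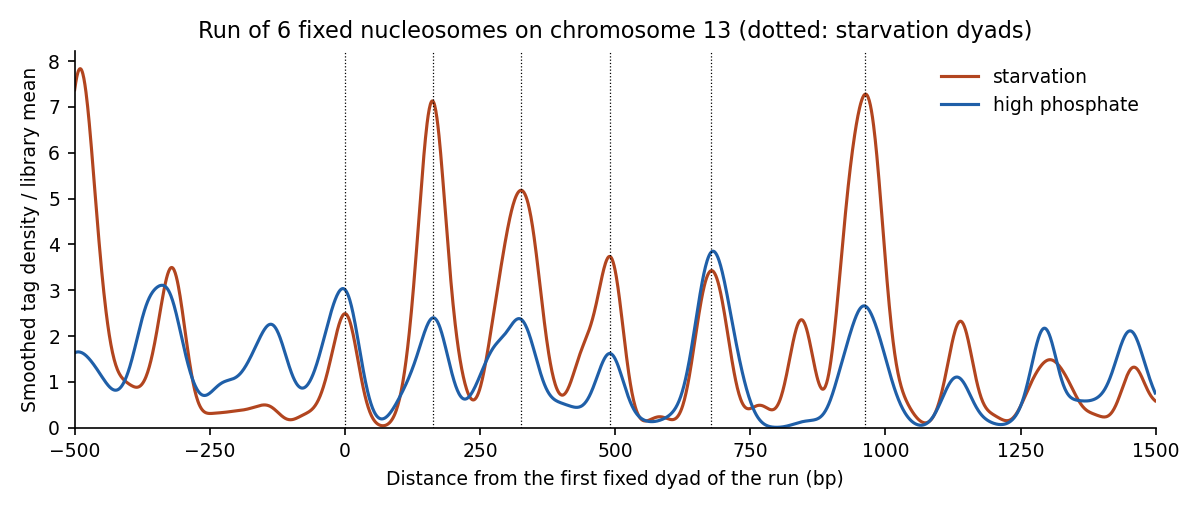
Smoothed tag density divided by the library mean (vertical axis) along the run of 6 fixed nucleosomes on chromosome 13, by distance in bp from the first dyad, starvation in red and high phosphate in blue; dotted lines mark the starvation dyads. The positions of the peaks match within 4 bp at all 6, while their heights in starvation range from 2.49 to 7.28 and in high phosphate from 1.62 to 3.85.

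The other run of 6 lay on chromosome 15 from 7533 to 8701, with starvation heights from 2.46 to 6.52 and high phosphate heights from 1.82 to 3.0. Between its first and its next dyad, which are 305 bp apart, starvation again had an uncounted maximum, of height 3.09. The run of 5 with the highest mean height was on chromosome 1 from 60951 to 61900. All of its starvation heights were high, from 6.44 to 12.1, and its high phosphate heights ran from 2.0 to 5.47. Its steps were 313, 163, 157 and 170 bp in starvation and 314, 156, 166 and 167 bp in high phosphate. A run of 5 on chromosome 8 from 83300 to 84207 had heights of 2.09 to 4.63 in starvation and 1.96 to 4.97 in high phosphate, and a run of 5 on chromosome 4 from 198337 to 199270 had 3.87 to 11 and 2.13 to 4.82.

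Fixed and near-matched nucleosomes lay beside wide gaps at shares that differed by less than the SD over chromosomes. A wide gap was a distance of 230 to 400 bp between neighbouring dyads of height 1 or more, and 3698 fixed nucleosomes (44.9%, SD over chromosomes 3.53 percentage points) flanked a gap of the starvation map. Over all strong dyads the share was 46.9%, and it was 45.2% at near-matched dyads. Beside gaps of the high phosphate map lay 37.0% of fixed, 37.2% of near-matched and 29.2% of all strong dyads. Beside a gap in both maps lay 26.9% of fixed, 26.2% of near-matched and 20.6% of all strong dyads. Unmatched dyads, which lack a high phosphate dyad of height 1.5 or more within 20 bp by definition, had 11% beside a high phosphate gap and 6.72% beside a gap in both maps, so the lower shares over all strong dyads in these maps are not independent of the rule. Of the 11545 starvation gaps, 20.2% held an uncounted maximum of height 1 or more, as did 10.2% of the 431 gaps with a fixed nucleosome on each side, so not every gap is empty of nucleosomes.

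The fixed share had no steady order with distance from a gap. Among strong dyads with a partner within 20 bp, it was 52.6% at the dyad next to a starvation gap, 53.6% at the next one, 51.2% at the third, 54.4% at the fourth, 49.2% at the fifth and 50.4% at the sixth. The SD over chromosomes was 3.16 to 14.5 percentage points, and it was above 10 at the fifth and the sixth. With gaps of the high phosphate map the values were 52.7%, 53.8%, 53.1%, 51.3%, 50.2% and 53.3%.

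Of gaps between strong dyads, those with fixed nucleosomes on both sides held the fewest tags. At 431 such gaps, with a median width of 295 bp, the middle 41 bp had 594 starvation tags, 7.52% of the number at a flanking dyad, and 2888 high phosphate tags, or 22.9%. At 1477 gaps between strong dyads of which 1 was fixed the values were 9.98% and 33.6%. At 1553 gaps between strong dyads of which none was fixed they were 12.1% and 46.2%. The gaps were called in starvation, which lowers the starvation values. High phosphate tags were not used to call them, but they did decide which flanks were fixed, and a fixed flank has more high phosphate tags by the rule. Counted per gap, the middle held 6.70 high phosphate tags between fixed flanks and 7.84 where neither flank was fixed. No tag fell in the middle of 18.6% of the former and 7.34% of the latter in high phosphate. A flank that is not fixed may have its high phosphate dyad elsewhere, also towards the gap, so these values are not independent of the rule either. Near-matched and unmatched flanks were not taken apart.

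Tag numbers on the fixed nucleosomes fell into 2 groups, although their positions changed by 5 bp at most. The log2 ratio of tags, starvation over high phosphate, within 73 bp of the dyad, scaled to the nuclear totals, had a peak just below 0 and another near 1.4. There were 1213 fixed nucleosomes with a log2 ratio from −0.25 to 0, 450 from 0.5 to 0.75 and 703 from 1.25 to 1.5. On 16 of 16 chromosomes fewer fixed nucleosomes had a ratio from 0.5 to 1 than from −0.25 to 0.25 or from 1.25 to 1.75. The median was 0.23, with chromosome medians from 0.079 on chromosome 11 to 0.83 on chromosome 1. At 2430 fixed nucleosomes (29.5%) starvation was at least 2-fold higher, and at 44 (0.534%) at least 2-fold lower. Over all strong starvation dyads these shares were 40.1% and 0.432%. They were 30.2% and 0.569% at near-matched and 63.7% and 0.161% at unmatched dyads, so the shares at fixed nucleosomes were not particular to them. Since the rule asks for height in starvation, nothing can be read from the balance of the directions.

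The same shape was present in nucleosomes chosen without the starvation library. Over 23920 high phosphate dyads of height 2 or more, 3119 fell between −0.75 and −0.5 on the log2 scale and 3114 between −0.5 and −0.25. The numbers then dropped to 878 from 0.75 to 1 and rose again to 1042 from 1.25 to 1.5. Starvation was at least 2-fold higher at 13.8% of them (SD over chromosomes 3.12 percentage points) and at least 2-fold lower at 20.6%. After a correction for filled positions the fixed nucleosomes kept the 2 peaks, with 1095 from −0.5 to −0.25, 429 from 0.5 to 0.75 and 602 from 1.25 to 1.5.

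**Figure D5:**
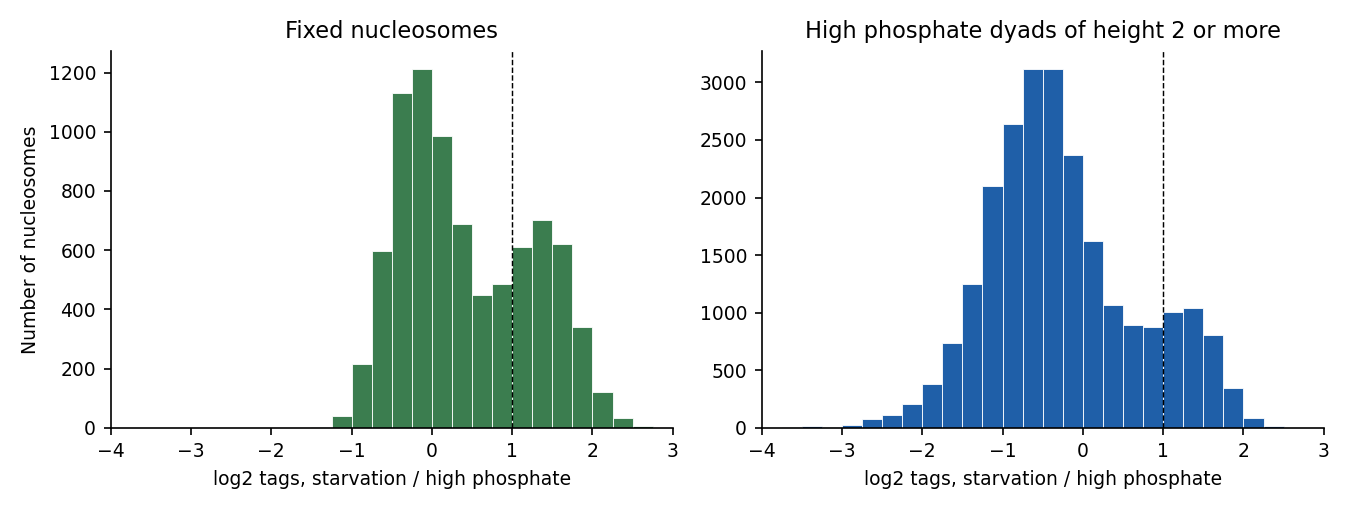
Number of nucleosomes (vertical axis) by the log2 ratio (starvation over high phosphate) of tags within 73 bp of the dyad, in classes of 0.25, for the 8243 fixed nucleosomes (left) and for 23920 high phosphate dyads of height 2 or more, chosen without the starvation library (right); the dashed line marks 2-fold. Both panels have a large group with its peak below 0 and a smaller one with its peak between 1.25 and 1.5. The sets of the panels overlap.

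The 2430 fixed nucleosomes that were at least 2-fold higher in starvation were lower in high phosphate and less often beside a wide gap. The split is on the ratio of the libraries, so their heights are set by it and are a description. Their high phosphate height had a median of 2.30, against 2.74 at the 4878 with a log2 ratio under 0.5. The spread of high phosphate tags around the dyad was 25.9 bp (SD over chromosomes 0.414) against 25.7 bp (0.291), and the first neighbouring peak was 1.76 against 1.66. In starvation their median height was 6.99 against 2.72, and the first neighbouring peak 2.83 against 1.76. They were beside a wide gap less often on 15 of 16 chromosomes in either map. With gaps of the high phosphate map the shares were 31.8% (SD 3.52) and 39.8% (SD 2.85), and with gaps of the starvation map 38.9% (SD 4.86) and 48.1% (SD 3.91). The fragment ends lay 152 bp apart against 148 bp in starvation and 147 against 144 bp in high phosphate. Base composition was not analysed here.

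Ratios were related between near neighbours, and the relation faded with distance. Values pooled over all pairs do not show whether single long stretches of high ratio exist, which was not tested. For 1300 pairs of fixed nucleosomes 150 to 250 bp apart, Spearman's rho between their log2 ratios was 0.29. It was 0.20 at 251 to 500 bp (1835 pairs), 0.17 at 501 to 1000 bp (3414 pairs), 0.10 at 1001 to 2000 bp and 0.041 at 2001 to 5000 bp. At 5001 to 10000 bp it was 0.0020. Where the left nucleosome of a pair 150 to 250 bp apart was at least 2-fold higher in starvation, so was the right one at 52.1%, against 25.8% where it was not. Pairs share both libraries and a nucleosome can be in several pairs.

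The fixed nucleosome with the highest lower height of the 2 libraries lay on chromosome 12 from 460155 to 460301. Starvation gave 238 tags and high phosphate 285, at heights of 22.0 and 9.20, and a log2 ratio of 1.12 (95% exact binomial interval 0.86 to 1.37). In the 2 windows of 81 bp where its fragment ends fall, high phosphate had 80 and 81 tags and starvation 69 and 78. Since a position and strand holds at most 1 tag, high phosphate stood at the cap and starvation near it. The ratio and its interval are bounded by this cap, and no excess in starvation can be read from them. Its dyads were 2 bp apart. The surrounding 10 kb held 1046 and 1364 tags, so this nucleosome took a large part of them. How many positions there can be placed uniquely was not measured.

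The next in height were less extreme. On chromosome 2 from 84490 to 84636 there were 56 starvation tags and 126 in high phosphate, at heights of 8.25 and 6.63. The fixed nucleosome on chromosome 9 from 55324 to 55470 had 46 and 105 tags, at heights of 7.83 and 6.23. On chromosome 13 from 146217 to 146363 there were 80 and 128 tags, at heights of 10.2 and 6.12. The dyads of these 3 were displaced by 2, 4 and 5 bp. The other 6 of the top 10 lay on chromosomes 1, 2, 11, 12, 15 and 16, with 35 to 51 starvation tags and 95 to 152 high phosphate tags. Intervals of the log2 ratio included 0 at 7 of these 10, lay above it at 2 and below it at 1, on chromosome 12 from 424178 to 424324 (−0.73, interval −1.32 to −0.20). Among those above 0 is the nucleosome on chromosome 12 from 460155 to 460301, whose ratio is bounded by the cap.

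The largest ratios were at nucleosomes that stood high in starvation and low among fixed nucleosomes in high phosphate. The starvation heights of the top 5 ran from 6.98 to 10.7. Their high phosphate heights of 1.64, 1.95, 1.83, 1.51 and 1.55 were all below the lower quartile of 2.11, and near the limit of 1.5 that the rule sets. On chromosome 15 from 202414 to 202560 there were 69 starvation tags and 29 high phosphate tags, a log2 ratio of 2.61 (interval 1.98 to 3.31). On chromosome 13 from 242938 to 243084 there were 74 and 32 tags, a log2 ratio of 2.57 (1.97 to 3.23). On chromosome 16 from 645089 to 645235 there were 81 and 37 tags, a log2 ratio of 2.5 (1.93 to 3.11). The other 2 of the top 5 were on chromosome 15 from 594305 to 594451, with 57 and 24 tags, and on chromosome 6 from 153498 to 153644, with 61 and 27 tags. The dyads of these 2 lay 3 and 5 bp apart in the libraries.

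The lowest ratios were at nucleosomes with starvation heights of 2.01 to 2.81. On chromosome 7 from 625337 to 625483 there were 20 starvation tags and 148 high phosphate tags, a log2 ratio of −1.48 (interval −2.26 to −0.83), at heights of 2.01 and 5.39. On chromosome 1 from 190690 to 190836 there were 18 and 128 tags, a log2 ratio of −1.42 (−2.25 to −0.74). The next were on chromosome 2 from 490550 to 490696, with 22 and 130 tags, on chromosome 15 from 461826 to 461972, with 24 and 135 tags and its dyad on the same base in both libraries, and on chromosome 12 from 556286 to 556432, with 11 and 73 tags. Taken one at a time, 2909 fixed nucleosomes (35.3%) had an interval above 0, 158 (1.92%) one below 0 and 5176 one that included 0. Such intervals leave out everything but counting error, and PCR copies of a molecule cannot be recognised. The same counts were not made over all strong dyads, and the rule asks for more height in starvation. Nothing can therefore be read from their balance.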

How the data were processed

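Positions refer to the sacCer1 yeast genome, per the labels' protocols. Aligner and read length: not given in the sources used here. The deposited files list chromosome, position and strand of each tag, with no level (unit: other). No position and strand occurs more than once. Groups came from sample titles. Members and lists were chosen with earlier results of these data known.

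Tags on the 16 nuclear chromosomes were moved 73 bp towards the fragment middle, and density was smoothed with a Gaussian SD of 20 bp and divided by the library mean. Dyads were local maxima at least 120 bp apart, the higher kept. Peaks of mean profiles were read after smoothing with an SD of 15 bp (arrays) or 5 bp (fragment ends). Log2 ratios used a pseudocount of 0.5 and were scaled to nuclear tag totals; intervals are exact binomial (Clopper-Pearson, 95%). The dyad calling was run on simulated nucleosomes with more tags, narrower placement and lower height limits than here. That run therefore does not show how closely dyads are placed in these libraries. Regions named are the top 10 by the lower of their heights, the 5 longest runs (ties by mean lower height) and the 5 highest and 5 lowest ratios by the interval bound nearest to 0. The classes by log2 ratio, pairs by distance, gap filling, same-strand distances and high phosphate dyads of height 2 were added after the values were seen. Coordinates of different builds were not mixed, so genes and sequences were not analysed here. Python 3.11.15, numpy 2.4.6 and scipy 1.17.1 were used.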

Additional observations from a re-analysis of the deposited data

How the results depend on the processing

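No paired analysis was possible because there was a single library per condition, so leaving out replicates was not possible either. Array spacing and the 10 bp amplitude moved by less than their SD over chromosomes under every alternative run. The number of fixed nucleosomes was 5299 with smoothing over 30 bp and 12617 with matching within 10 bp; it stayed within 1.5 times of 8243 under the other 6 alternatives. With smoothing over 30 bp, 50.8% of the 8243 lay within 5 bp of a fixed nucleosome of that map. The share of next dyads that were fixed was 39.7% with smoothing over 30 bp, 62.4% with matching within 10 bp, 33.7% after thinning of the high phosphate library and 37.7% with height 2 in both libraries. The share beside a wide gap was 43.7% and 46.0% with smoothing over 15 and 30 bp, 53.9% with gaps of 200 to 400 bp and 37.0% with gaps called in high phosphate. The share at least 2-fold higher in starvation was 25.6% and 36.6% with smoothing over 15 and 30 bp, 28% with local heights (relative to the mean over 10 kb), 27.4% after thinning, 25.1% with height 2 in both, 31.0% with scaling to the median 10 kb bin and 33.3% with at least 3 tags on each strand. The median log2 ratio was 0.51 with smoothing over 30 bp and within its SD over chromosomes otherwise. The tag spread in high phosphate was 26.3 and 25.5 bp with smoothing over 15 and 30 bp, 26.2 bp with matching within 10 bp, 25 bp after thinning and 25.5 bp with height 2 in both. Within 40 bp of the dyad it was 17.7 bp (starvation) and 18.8 bp (high phosphate). The fragment ends were 148, 152 and 152 bp apart in starvation with smoothing over 15 and 30 bp and with tags moved by 77 and 71 bp according to the fragment length of each library; in high phosphate they were 146 bp apart with smoothing over 15 bp and with those moves. The cause of these moves was not tested. Shares over all strong dyads were not taken under the alternatives, so the shares above describe the fixed nucleosomes only. The strand minimum and the correction for filled positions were chosen after seeing the data. Median starvation depth at a fixed nucleosome, 19 tags, limits how closely a dyad can be placed.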
